A study of Rattus norvegicus with 12 samples.

Results

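The gene set described here holds 177 of the 9653 named genes on the array (1.83%), those whose RNA was lower in kidneys of brain dead donors at both times the study sampled. A gene entered it when the mean log2 ratio of the 3 brain dead donor kidneys minus that of the 3 normal kidneys was at most -0.4 before transplantation (0 h), and the mean of the 3 brain dead donor grafts minus that of the 3 living donor grafts was at most -0.4 at 1 h after it. In addition, the highest brain dead array had to lie below the lowest array of its comparison group at both times. The rule gave 201 genes, of which 24 were left out by name. These included solute carriers, zinc finger proteins with symbols starting Zfp or Znf, subunits of the general transcription machinery and ubiquitin-specific proteases. Single genes such as the endothelial Tmem204 and Gja5 were also left out. Zinc finger proteins with other symbols, such as Zc3h6, stayed in the set. Both donor differences of every gene in the set were thus used to choose it and are given as a description, with no test.

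All animals were inbred male Lewis rats, so each graft was an isograft, a transplant between genetically alike animals. The 4 groups of 3 arrays were kidneys of brain dead donors (BD1 to BD3), taken after 6 h of brain death with mechanical ventilation, normal kidneys (NK1 to NK3), grafts from brain dead donors 1 h after transplantation (B21, B23 and B27) and grafts from living donors 1 h after transplantation (C22, C24 and C25). Brain death had been induced by slowly raising the intracranial pressure until the brain stem herniated. In both graft groups the left kidney was transplanted with 30 min of operative ischemia and the recipient lost its right kidney. A ventilated donor with an intact brain is not among the groups, so effects of brain death and of ventilation cannot be told apart. Kidneys at 0 h and grafts at 1 h are separate samples, and no array follows a kidney over time.

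Each array gave the ratio of its sample to a pool of normal kidney RNA, printed here on the log2 scale, where 0 is the level of the pool and -1 a halving. Ratios carry no absolute level, so the labelled tissue could not be checked by the presence of its marker genes. Whether the pool was made from the kidneys hybridised as NK1 to NK3 is not stated in these sources, and if it was, ratios near 0 in that group would follow from the design. The RNA was of whole kidney, and fewer cells of a type cannot be told apart from less RNA per cell. The labels do not tell which animals gave which array, and p-values measure the spread between these arrays. Over all 18478 features, each array correlated with the others of its group at a mean r of 0.851 to 0.94, and B21 was lowest. Without B21 the rule gave 182 genes, 171 of them in the set.

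The genes of the set were sorted by hand into textbook roles after the members were known, and no pathway was tested. The exclusions by name take genes out of some roles, and the share of each role over all named genes is not given. By textbook role, 28 of its genes encode secreted factors, receptors or signalling proteins, 22 encode nuclear receptors, transcription cofactors and chromatin proteins, 18 mitochondrial proteins, 16 proteins of cilia, centrosomes and microtubules, 15 RNA processing factors and 15 enzymes of metabolism. A further 14 act in membrane traffic and cell polarity, 7 are ion channels, pumps or their regulators, 6 belong to the ubiquitin, NEDD8 and SUMO systems, 5 to DNA repair and replication, 4 to nuclear pores and import, and 27 had another role or none assigned. Kidney tubules depend on several of these systems: mitochondria power the reabsorption of salt, apical polarity proteins keep the epithelium sealed, and a primary cilium on most tubule cells senses flow. Brain death is known to bring a surge of catecholamines, then low blood pressure and hormone loss, and to raise inflammatory gene expression in peripheral organs before they are removed.

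The difference at 0 h, brain dead donor kidneys minus normal kidneys, had a median of -0.55 over the 177 genes (a ratio of 0.682), against a median of -0.0015 over all features. It was lowest for S100pbp at -1.50, and 8 genes were at -1 or below. The difference at 1 h, brain dead minus living donor grafts, had a median of -0.67 (a ratio of 0.631), against 0.0141 over all features. It was lowest for Nr0b2 at -1.48, and 18 genes were at -1 or below. For 135 of the 177 genes the difference was lower at 1 h than at 0 h, and 4 genes, S100pbp, Nr0b2, Inpp5j and Akr1c19, were at -1 or below at both times. The share of all named genes with the lower difference at 1 h is not given. Under quantile normalization the medians came in the other order, -0.574 at 0 h and -0.507 at 1 h.

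**Figure D1:**
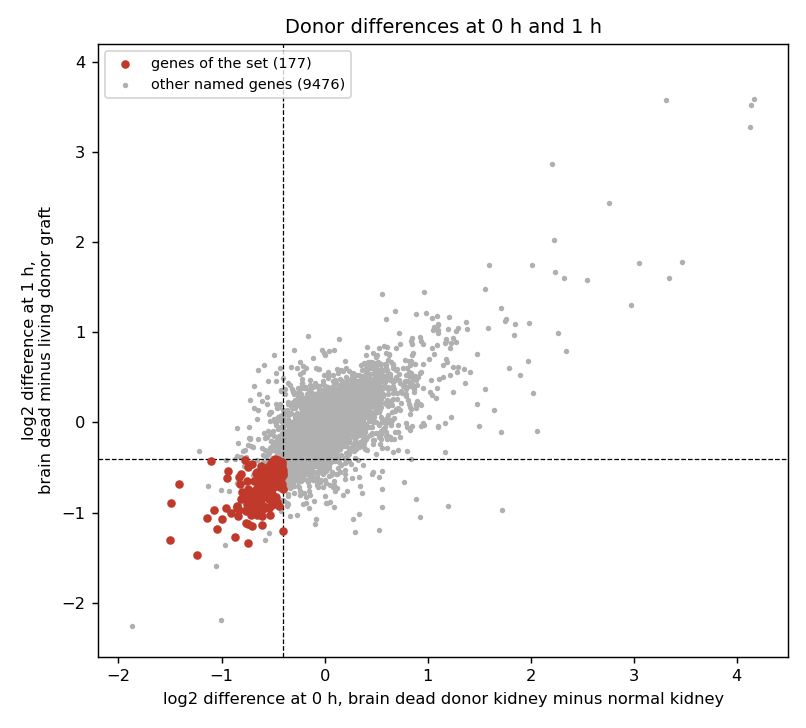
Each point is a named gene; the horizontal axis is the log2 difference at 0 h (brain dead donor kidneys minus normal kidneys) and the vertical axis that at 1 h (brain dead minus living donor grafts), with 3 arrays per group. Red points are the 177 genes of the set, all at or below -0.4 (dashed lines) on both axes, and grey points in that corner are genes left out by name or with overlapping replicates.

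In limma with Benjamini-Hochberg adjustment, 104 of the 177 genes had an adjusted p under 0.05 for the difference at 0 h, where 2.39% of all features were called lower and 2.27% higher, and 139 for the difference at 1 h, where 4.74% were called lower and 2.02% higher. The rule used these contrasts, and nothing is read from either count. Absence of overlap alone was common among named genes, 13.1% being lower without overlap at 0 h and 14.5% at 1 h. The full rule before the exclusions by name took 2.08% of named genes, and its mirror image, at least 0.4 higher at both times without overlap, took 1.66% (160 genes). Values ran on across the threshold. The 4 genes just inside were the chromatin reader Ing1 (-0.4807 at 0 h and -0.4005 at 1 h), Filip1 (-0.4015 and -1.2078), Scaf4 (-0.4027 and -0.5294) and Efhd1 (-0.4045 and -0.5596). Just outside lay Cmahp (-0.3999 at 0 h and -0.4929 at 1 h), Cdc5l (-0.3994 and -0.419), Rabep1 (-0.3985 and -0.6729) and Ppp1r1b (-0.3982 and -0.4398).

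Array by array, the median log2 ratio of the set was -0.47, -0.67 and -0.62 in BD1, BD2 and BD3, against 0.04, 0.02 and -0.05 in NK1, NK2 and NK3. In the grafts it was -0.78, -0.76 and -0.80 in B21, B23 and B27, against -0.16, -0.14 and 0.09 in C22, C24 and C25. Every brain dead array thus lay below every other array at the level of the median, and between 162 and 175 of the 177 genes were below the pool on each brain dead array. The rule bears on both, and the share of all named genes below the pool is not given. C25 stood above C22 and C24: it held the highest value of the living donor grafts for 137 of the 177 genes, and for 42.2% of all named genes. BD1 stood above BD2 and BD3, with the highest value of its group for 115 genes, against 38.9% of named genes. The rule had already set each brain dead group below its own comparison group without overlap, so nothing is read from the next count. For 142 genes all 6 brain dead arrays lay below all 6 others, which 497 named genes (5.15%) did in all. In 32 of the other 35, such as Spag8, Wnk1 and Ctdsp1, a brain dead donor kidney, most often BD1, reached above a living donor graft.

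**Figure D2:**
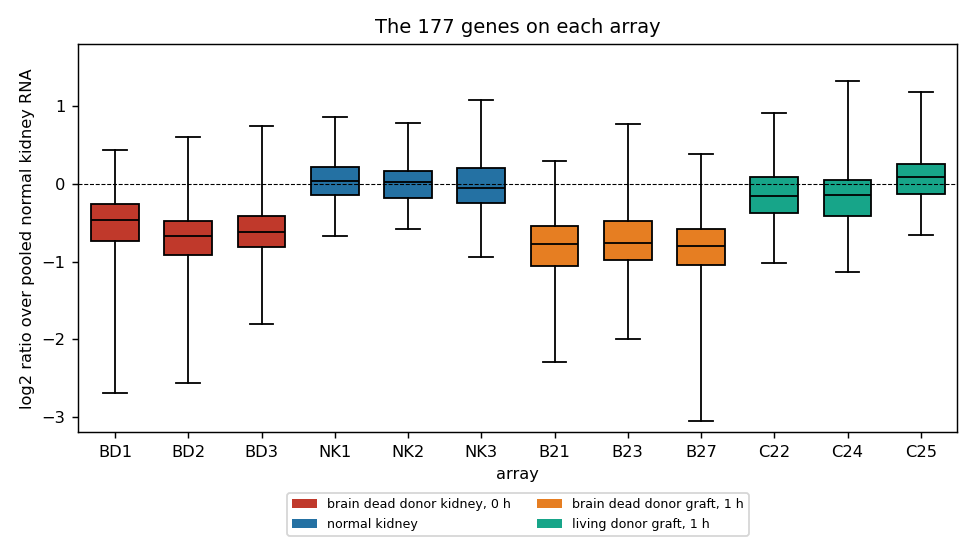
Boxes give the median and quartiles of the 177 genes' log2 ratio over pooled normal kidney RNA on each of the 12 arrays, and whiskers run from the lowest to the highest gene. The medians of the 6 brain dead arrays lie between -0.80 and -0.47 and those of the 6 others between -0.16 and 0.09, with C22 and C24 below C25.

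The lowest group mean was that of the brain dead donor grafts for 157 genes and that of the brain dead donor kidneys for the remaining 20, and the highest was that of the normal kidneys for 123 and of the living donor grafts for 54. Shares of these orders over all named genes are not given. The genes also varied more between replicates than named genes did in general. Their median SD was 0.194 in brain dead donor kidneys (0.088 over named genes) and 0.102 in normal kidneys (0.086). In the grafts it was 0.171 in those of brain dead donors (0.105 over named genes) and 0.146 in those of living donors (0.092).

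The 20 genes with the lowest mean of both differences are given with their log2 ratio on every array, in the order of the array names above, and by role. Differences carry the standard error of the fit across all 12 arrays, which is the same at both times for a gene.

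Nr0b2 encodes a nuclear receptor without a DNA-binding domain that represses other receptors and is known from bile acid metabolism in liver. Its log2 ratios were -1.94, -1.16 and -0.65 in brain dead donor kidneys, against -0.13, 0.15 and -0.08 in normal kidneys. In brain dead donor grafts they were -0.59, -0.54 and -1.22, against 0.68, 0.72 and 0.68 in living donor grafts. The differences were -1.23 ± 0.28 at 0 h and -1.48 ± 0.28 at 1 h. The brain dead kidneys spread widely, and the 3 living donor grafts lay close together above the pool, where most genes of the set lay near or below it. Mllt10 encodes a cofactor of the histone methyltransferase DOT1L. Its values were -0.07, -0.81 and -0.77 in brain dead donor kidneys, against 0.57, 0.39 and 0.38 in normal kidneys, and -0.89, -0.84 and -0.84 in brain dead donor grafts, against 0.16, 0.24 and 0.22 in living donor grafts (differences -0.99 and -1.07, ± 0.16). The gene's mean joins 2 probes that disagree: 1 gave -1.75 at 0 h and -2.33 at 1 h, and the other -0.24 and 0.20.

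Marf1 and Zc3h6 were placed with the RNA factors. Marf1, an RNA-binding protein with a ribonuclease domain known from meiosis, had 0.16, -0.57 and -0.51 in brain dead donor kidneys, against 0.60, 0.41 and 0.63 in normal kidneys. It had -0.85, -0.55 and -0.99 in brain dead donor grafts, against 0.20, 0.08 and 0.17 in living donor grafts, for differences of -0.85 and -0.95 (± 0.18). BD1 alone of the brain dead arrays was above the pool, and it overlapped with the living donor grafts. Zc3h6, a protein with CCCH zinc fingers, had -2.69, -1.43 and -1.33 in brain dead donor kidneys, against -0.26, -0.46 and -0.50 in normal kidneys, and -1.72, -1.02 and -1.26 in brain dead donor grafts, against -0.89, -0.89 and -0.18 in living donor grafts. Its differences were -1.41 and -0.68 (± 0.35), and BD1 was far below the other arrays. Without C25 the difference at 1 h was -0.45.

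Senp7, Ubac1 and Dcun1d2 belong to the systems that attach small proteins to others. Senp7, a protease that trims SUMO chains, had -0.35, -0.91 and -0.52 in brain dead donor kidneys, against 0.36, 0.08 and 0.02 in normal kidneys, and -1.02, -1.17 and -1.22 in brain dead donor grafts, against 0.30, 0.01 and 0.29 in living donor grafts. The difference was -0.74 at 0 h and -1.34 at 1 h (± 0.15), and both of its probes were below -0.5 at both times. Ubac1, a subunit of the KPC ubiquitin ligase, had -0.69, -1.13 and -1.24 in brain dead donor kidneys, against -0.13, -0.18 and -0.14 in normal kidneys. In grafts it had -1.19, -1.70 and -1.59 from brain dead donors, against -0.25, -0.36 and -0.06 from living donors, and the differences were -0.87 and -1.27 (± 0.16). Dcun1d2, which helps to attach NEDD8 to cullins, had -0.78, -1.27 and -1.19 in brain dead donor kidneys, against -0.31, -0.27 and -0.37 in normal kidneys, and -1.34, -1.78 and -1.30 in brain dead donor grafts, against -0.50, -0.65 and -0.31 in living donor grafts (differences -0.76 and -0.99, ± 0.16). In all 3 genes every brain dead array lay below every other array, and the grafts differed more than the kidneys at 0 h.

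Among enzymes, Inpp5j encodes a phosphatase that removes the 5-phosphate of phosphoinositides. It had -0.34, -0.70 and -0.97 in brain dead donor kidneys, against 0.21, 0.58 and 0.33 in normal kidneys, and -1.09, -0.88 and -1.14 in brain dead donor grafts, against 0.30, 0.04 and 0.08 in living donor grafts. The differences were -1.04 and -1.18 (± 0.16), with all 6 brain dead arrays below the pool and all 6 others above it. Akr1c19, an aldo-keto reductase, had -1.18, -1.59 and -1.40 in brain dead donor kidneys, against -0.05, -0.37 and -0.32 in normal kidneys. In brain dead donor grafts it had -1.88, -1.99 and -1.85, against -0.93, -1.14 and -0.49 in living donor grafts, and the differences were -1.15 and -1.06 (± 0.16). Akr1c19 was below the pool on all 12 arrays and lower in both graft groups than in the kidneys at 0 h of the same donor kind. Stbd1, which binds glycogen and anchors it to membranes, had -1.07, -1.23 and -1.27 in brain dead donor kidneys, against -0.34, -0.17 and -0.94 in normal kidneys, and -1.06, -1.25 and -1.76 in brain dead donor grafts, against -0.38, -0.21 and -0.04 in living donor grafts. Its differences were -0.70 and -1.15 (± 0.22), and NK3 came close to the brain dead arrays.

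Coa4 and Ccdc51 encode mitochondrial proteins. Coa4, an assembly factor of cytochrome c oxidase, had -0.36, -0.84 and -0.80 in brain dead donor kidneys, against 0.09, 0.04 and 0.15 in normal kidneys, and -1.33, -1.15 and -0.91 in brain dead donor grafts, against -0.12, -0.11 and 0.18 in living donor grafts (differences -0.76 and -1.12, ± 0.14). Ccdc51, the pore subunit of a mitochondrial potassium channel, had -0.26, -0.94 and -0.89 in brain dead donor kidneys, against 0.18, 0.10 and 0.18 in normal kidneys. It had -1.04, -0.96 and -1 in brain dead donor grafts, against -0.10, -0.13 and 0.02 in living donor grafts, and its differences were -0.85 and -0.93 (± 0.15). In both genes BD1 was the highest of the 6 brain dead arrays and still below all others.

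Spag8 and Ccdc28b are linked to cilia. Spag8, a microtubule-bound protein of cilia and flagella, had -0.68, -1.50 and -1.34 in brain dead donor kidneys, against 0.45, 0.25 and 0.25 in normal kidneys, and -1.25, -1.54 and -1.50 in brain dead donor grafts, against -0.75, -0.86 and 0.02 in living donor grafts. The differences were -1.49 at 0 h and -0.90 at 1 h (± 0.25). C22 and C24 were well below C25, and the 2 probes of Spag8 differed in size (-1.06 and -1.92 at 0 h, -0.61 and -1.18 at 1 h). Ccdc28b, which binds proteins of the Bardet-Biedl syndrome complex, had -0.26, -0.54 and -0.47 in brain dead donor kidneys, against 0.45, 0.54 and 0.45 in normal kidneys, and -0.54, -0.73 and -0.67 in brain dead donor grafts, against 0.29, 0.18 and 0.62 in living donor grafts. Its differences were -0.90 and -1.01 (± 0.11), the smallest error of the 20 together with that of Dennd2d.

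Of the signalling genes, Sostdc1 encodes a protein that kidney tubules secrete and that blocks BMP and Wnt ligands. It had -1.63, -1.63 and -1.43 in brain dead donor kidneys, against -0.61, -0.14 and -0.73 in normal kidneys, and -1.63, -1.41 and -1.61 in brain dead donor grafts, against -0.54, -0.81 and -0.38 in living donor grafts (differences -1.07 and -0.97, ± 0.16). All 6 brain dead arrays lay between -1.63 and -1.41, so kidneys and grafts of brain dead donors had about the same level. Map2k6, a kinase that activates p38, had -0.82, -1.13 and -1.20 in brain dead donor kidneys, against -0.02, -0.50 and -0.39 in normal kidneys, and -0.86, -0.92 and -3.05 in brain dead donor grafts, against -0.64, -0.74 and -0.08 in living donor grafts. B27 set the difference of -1.12 at 1 h, which was -0.40 without that array. The difference at 0 h was -0.74, with a standard error of 0.49 at both times. Gpr160, an orphan G protein-coupled receptor, had -0.79, -1.16 and -0.95 in brain dead donor kidneys, against -0.18, -0.08 and -0.16 in normal kidneys, and -1.37, -1.11 and -1.16 in brain dead donor grafts, against -0.44, -0.53 and 0.25 in living donor grafts (differences -0.83 and -0.98, ± 0.18). Again C25 was above C22 and C24, and no brain dead array reached the others.

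The last 3 have other roles. Dennd2d, a DENN domain protein that activates Rab GTPases, had -0.69, -0.79 and -0.78 in brain dead donor kidneys, against 0.11, 0.11 and 0.03 in normal kidneys, and -0.90, -1.05 and -0.86 in brain dead donor grafts, against -0.04, -0.08 and 0.41 in living donor grafts (differences -0.84 and -1.04, ± 0.11). S100pbp, named for its binding of the calcium-binding protein S100P in human cells, had -0.86, -2.56 and -1.80 in brain dead donor kidneys, against -0.08, -0.41 and -0.23 in normal kidneys, and -1.82, -2 and -1.54 in brain dead donor grafts, against -0.53, -0.73 and -0.20 in living donor grafts. Its differences, -1.50 and -1.30 (± 0.35), are ratios of 0.353 and 0.406, and BD1 was the least lowered of the brain dead arrays. Wscd1, a WSC domain protein, had -0.71, -0.67 and -0.73 in brain dead donor kidneys, against 0.18, 0.35 and 0.23 in normal kidneys, and -0.97, -0.45 and -0.84 in brain dead donor grafts, against 0.11, 0.16 and 0.32 in living donor grafts (differences -0.96 and -0.95, ± 0.12). The 3 brain dead donor kidneys lay close together in Wscd1, and in all of these genes no brain dead array reached the others.

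**Figure D3:**
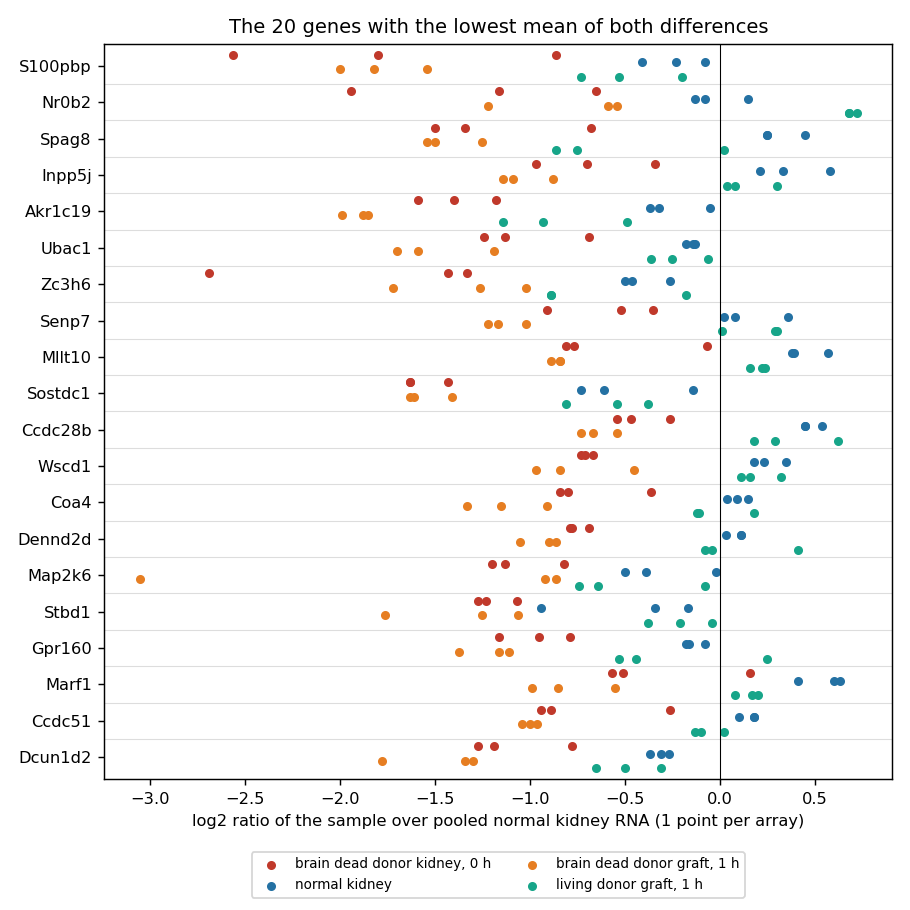
Log2 ratio over pooled normal kidney RNA, 1 point per array, for the 20 genes with the lowest mean of both differences; each gene has 12 points, coloured by group. Red and orange points (brain dead donors) lie left of blue and green ones in each gene, apart from the overlap of BD1 with a living donor graft in Spag8 and Marf1, and B27 is the isolated point at -3.05 in Map2k6.

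Promoter sequence could be looked up in RefSeq (assembly GRCr8, 250 bases before to 50 after the gene's start) for 153 of the 177 genes and for 7934 named genes in all. The promoters of 4 of the lowest genes are printed because they differ in kind while the genes' RNA was lower at the same times: Nr0b2 (chr5:151062910-151063209, plus strand) and Akr1c19 (chr17:70913666-70913965, plus strand) hold few or no CpG sites, 5 and 0, and Spag8 (chr5:62699615-62699914, minus strand) and Ubac1 (chr3:29246112-29246411, minus strand) hold 11 and 29. Capitals mark letters that match, on either strand, the TATA box TATAAA, the box named CCAAT, the GC box GGGCGG or the E-box CACGTG.
Nr0b2: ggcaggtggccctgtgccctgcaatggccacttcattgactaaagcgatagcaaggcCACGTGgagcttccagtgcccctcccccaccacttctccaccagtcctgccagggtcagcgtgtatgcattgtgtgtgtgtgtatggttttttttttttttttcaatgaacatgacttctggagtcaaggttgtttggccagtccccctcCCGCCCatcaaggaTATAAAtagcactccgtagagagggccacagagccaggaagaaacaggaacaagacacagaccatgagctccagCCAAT
Akr1c19: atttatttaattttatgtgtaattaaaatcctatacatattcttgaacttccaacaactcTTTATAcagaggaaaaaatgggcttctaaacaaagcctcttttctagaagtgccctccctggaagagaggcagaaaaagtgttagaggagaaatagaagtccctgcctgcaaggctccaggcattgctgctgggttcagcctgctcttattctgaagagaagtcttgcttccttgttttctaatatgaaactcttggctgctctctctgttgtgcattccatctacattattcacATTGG
Spag8: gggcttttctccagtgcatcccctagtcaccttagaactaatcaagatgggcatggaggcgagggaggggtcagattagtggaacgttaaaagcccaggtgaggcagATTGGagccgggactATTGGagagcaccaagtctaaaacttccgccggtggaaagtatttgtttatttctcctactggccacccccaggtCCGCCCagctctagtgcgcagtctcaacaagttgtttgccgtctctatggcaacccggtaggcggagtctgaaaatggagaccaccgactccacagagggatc
Ubac1: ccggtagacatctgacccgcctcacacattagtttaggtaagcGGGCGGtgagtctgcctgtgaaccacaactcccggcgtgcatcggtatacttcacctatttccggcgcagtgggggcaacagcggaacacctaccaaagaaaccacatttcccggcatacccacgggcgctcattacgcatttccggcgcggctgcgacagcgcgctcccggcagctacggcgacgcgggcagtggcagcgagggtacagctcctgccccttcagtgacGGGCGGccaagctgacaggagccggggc
A TATAAA lies 29 bases before the start of Nr0b2 on the gene's strand, and Ubac1 has no TATAAA but 2 copies of GGGCGG.

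The promoters of the set were compared with those of all named genes by composition and motif. Their median GC content was 60.3%, against 60% over all 7934, and 74.5% had a ratio of observed to expected CpG of at least 0.6, against 64.6%. TATAAA was found in 9.15% (8.5% of all), CCAAT in 38.6% (37.6%) and GGGCGG in 57.5% (58.3%), each on either strand. AAGGTCA, which several nuclear receptors bind, was in 5.23% (3.08% of all), CACGTG, the E-box of bHLH factors, in 3.27% (9.13%), and TGACGTCA, the full cAMP response element, in 0.654% (2.76%). These shares are descriptions of 300-base windows and were not tested. By annotation, the start of another gene lay within 1000 bases on the opposite strand for 28 genes of the set (18.3%), against 13.8% of all. The divergent partner was measured for 13 of them, and none of the 13 was in the set. Their median differences were -0.03 at 0 h and -0.06 at 1 h. In limma with Benjamini-Hochberg adjustment 2 partners were lower at 1 h, where 4.74% of all features were: Tma7 beside Ccdc51 (-0.345 ± 0.076, adjusted p = 0.0264) and Tprkb beside Nat8f1 (-0.413 ± 0.103, adjusted p = 0.0418). Chromosome 10 carried 23 of the 176 genes with a position (13.1%, against 8.4% of named genes), chromosome 2 19 (10.8%, against 6.84%) and chromosome 1 18 (10.2%, against 12.8%).

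By role, the ubiquitin, NEDD8 and SUMO genes had the lowest medians, -0.70 at 0 h and -1.01 at 1 h, and the enzymes of metabolism the highest at 1 h, -0.52. Cand2, which exchanges the substrate receptors of cullin ligases, was mildest in that family at 1 h (-0.67 ± 0.07 in brain dead donor grafts and -0.23 ± 0.04 in living donor grafts, log2 ratio, SD, n = 3). The substrate receptor Klhl7 was lowest after Senp7 and Ubac1 (-1.46 ± 0.13 and -0.43 ± 0.03 in the same groups), with 1 of its 3 probes at -0.01 and -0.16.

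**Figure D4:**
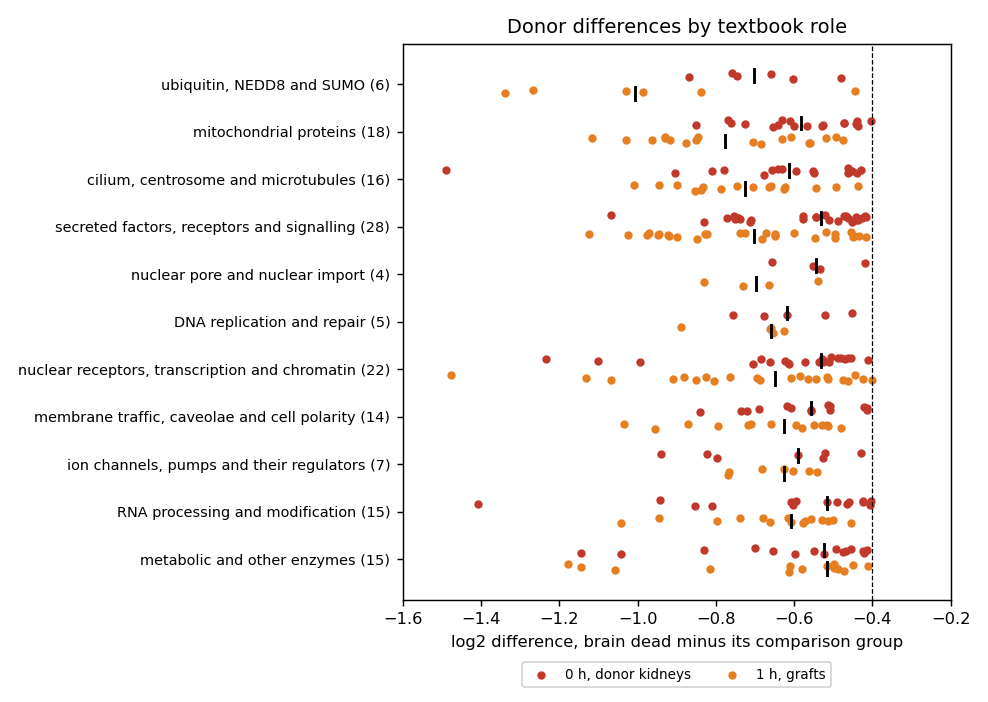
Each point is 1 gene of the set placed by its log2 difference, brain dead minus its comparison group, at 0 h (red) and 1 h (orange), with genes grouped by textbook role, the number in brackets and black bars at the medians; 27 genes with another or no role are not drawn. The dashed line is the threshold of -0.4, and the medians of the 0 h difference run from -0.70 to -0.52.

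Among chromatin genes, Tet1, which oxidises methylcytosine in DNA, averaged -1.30 ± 0.47 in brain dead donor kidneys and -0.20 ± 0.15 in normal kidneys, and -0.93 ± 0.18 in brain dead donor grafts and -0.50 ± 0.13 in living donor grafts (SD, n = 3 each). It was one of the 8 genes at -1 or below at 0 h and was among the mildest at 1 h (-0.42). Mllt3, like Mllt10 a partner of DOT1L, had differences of -0.54 and -0.81. Smarca2, an ATPase of SWI/SNF remodelling complexes, had -0.69 and -0.77. The histone demethylase Phf8 had -0.57 and -0.69. Rcor3, a corepressor that works with a histone demethylase, had -0.62 and -0.85, and -0.56 at 1 h without B21. Nr3c2, the mineralocorticoid receptor through which aldosterone acts on the distal nephron, averaged -0.69 ± 0.19 in brain dead donor kidneys and -0.19 ± 0.11 in normal kidneys, and -0.81 ± 0.09 in brain dead donor grafts and -0.30 ± 0.04 in living donor grafts. Its differences of -0.51 and -0.51 were alike at both times.

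Several mitochondrial genes of the set serve expression of the mitochondrial genome. Tefm, the elongation factor of mitochondrial transcription, had differences of -0.61 at 0 h and -0.92 at 1 h. Mterf1, of the family of mitochondrial transcription termination factors, had -0.64 and -0.61, and -0.39 at 1 h without C25. Its relative Mterf2 had -0.77 and -0.85. Fastkd1, of a family that handles mitochondrial RNA, had -0.72 and -0.93. Others act on respiration or on the position of the organelle. Bcs1l, an assembly factor of complex III, had -0.47 and -0.71. Tmem177, which acts in cytochrome c oxidase assembly like Coa4, had -0.60 and -0.96. Rhot2, a GTPase that links mitochondria to transport along microtubules, had -0.53 and -0.68. Higd1b was the exception in level. It averaged -0.23 ± 0.28 in brain dead donor kidneys and 0.30 ± 0.21 in normal kidneys, and -0.05 ± 0.13 in brain dead donor grafts and 0.98 ± 0.17 in living donor grafts, and its lowest values were in the kidneys at 0 h, not in the grafts.

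Cilium and centrosome genes of the set reach from the cilium's base to its transport. Mkks, a chaperonin-like protein of Bardet-Biedl syndrome, had differences of -0.66 and -0.54, and 1 of its 3 probes met the rule (-1.03 at 1 h, against -0.31 and -0.30 for the others). B9d1, of the transition zone at the base, had -0.43 and -0.44. Ift25, of the intraflagellar transport complex, had -0.46 and -0.62. Efcab7, which holds a Hedgehog signalling complex in the cilium, had -0.78 and -0.83, and -0.55 at 1 h without B21. Enkd1, a centriole and microtubule protein, had -0.81 and -0.85. In Ccnb2, a mitotic cyclin, the difference was -0.64 and -0.79.

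Of the ion transport genes, Kcnj13, an inwardly rectifying potassium channel, averaged -0.98 ± 0.05 in brain dead donor kidneys and -0.16 ± 0.26 in normal kidneys, and -0.95 ± 0.20 in brain dead donor grafts and -0.27 ± 0.24 in living donor grafts. Fxyd6, a regulator of the sodium pump, had differences of -0.94 and -0.54. Wnk1, a kinase that controls salt transport in the distal nephron, had -0.52 and -0.63, and both of its probes met the rule. Nherf2, a scaffold of apical transporters, had -0.80 and -0.77. Atp6v0d2, a subunit of the vacuolar proton pump, had -0.53 and -0.60. All 8 measured markers of the collecting duct and all 7 of the proximal tubule missed the threshold at both times in the same limma fit, with medians of -0.02 and 0.04 at 0 h and -0.13 and -0.05 at 1 h. Of 6 markers of the loop of Henle and distal nephron, the calcium-sensing receptor Casr met the rule and was left out of the set by name (-0.77 at 0 h and -0.45 at 1 h). In limma Casr passed at 0 h only, and the other 5 did not pass at either time. The median of the list was -0.14 at 0 h and -0.002 at 1 h. The part of cell numbers in the set's differences was not tested.

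Genes of the set known from vessels include Emcn, a sialomucin of capillary endothelium, and Cavin2, a coat protein of caveolae. Emcn averaged -0.45 ± 0.49 in brain dead donor kidneys and -0.03 ± 0.09 in normal kidneys, and -0.49 ± 0.21 in brain dead donor grafts and 0.19 ± 0.05 in living donor grafts. BD1 carried its difference at 0 h, which was -0.42 with that array and -0.13 without it. Of the 3 Cavin2 probes only 1 met the rule, with -0.97 at 0 h and -1.19 at 1 h. The 8 measured endothelial markers had medians of -0.215 at 0 h and -0.209 at 1 h, or -0.05 and 0.08 without Emcn. Tmem204, which met the rule and was left out by name, had -1.867 and -2.254. In the same limma fit Pecam1 rose at 0 h (0.288 ± 0.059, adjusted p = 0.0263) and had 0.098 at 1 h. Tek (-0.461 and -0.68), Kdr (-0.379 and -0.497), Flt1 (-0.051 and 0.08), Vwf (-0.034 and 0.144) and Cdh5 (0.186 and 0.117) did not pass at either time, nor did Emcn. Neutrophil markers had a median of 0.84 at 0 h and 0.04 at 1 h over 5 genes. Of these S100a9 rose at 0 h (3.47 ± 0.50, adjusted p = 0.00729) and had 1.78 at 1 h (adjusted p = 0.0652), and the other 4 did not pass at either time. Of 8 markers of T and NK cells, Gzma, a protease of cytotoxic cells, rose at 0 h (0.818 ± 0.151, adjusted p = 0.0189) and Cd3d, a chain of the T cell receptor complex, rose at 1 h (0.212 ± 0.05, adjusted p = 0.0352). None of 8 markers of monocytes and macrophages and of 3 of red blood cells passed. Of 4 podocyte markers, Podxl met the rule and was left out by name (-0.43 at 0 h and -0.61 at 1 h). In limma Podxl passed at 1 h only, and the other 3 passed at neither time. The part of these cells in the lower ratios of the set was not tested.

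Signalling genes of the set sit at many levels. Among secreted proteins, the adiponectin relative C1qtnf2 had differences of -0.75 at 0 h (-0.43 without BD1) and -0.94 at 1 h. C1qtnf3, of the same family, had -0.44 and -0.50. Receptors included Gcgr, the glucagon receptor, with -0.77 at 0 h and -0.42 at 1 h (-0.24 without C25). Acvr1c, a type I receptor of the activin family, had -0.74 and -0.74, and -0.43 at 1 h without B27. Inside the cell, Nlk, a kinase that acts on Wnt targets, had -0.44 and -0.92. Tradd, the adaptor of the TNF receptor, had -0.42 and -0.43. Homer1, a scaffold of receptors at the membrane, had -0.54 and -0.85. Pcsk6, a proprotein convertase that activates growth factors, averaged -1.07 ± 0.11 in brain dead donor kidneys and -0.36 ± 0.20 in normal kidneys, and -0.74 ± 0.37 in brain dead donor grafts and 0.09 ± 0.08 in living donor grafts. Phlda3, a p53 target that restrains Akt, was above the pool in all 4 groups and rested on single arrays: its differences of -0.51 and -0.92 were -0.23 without BD1 and -0.52 without B27. In all, 20 of the 177 genes had a difference that leaving out 1 array moved over 1.5 times, and the highest value this gave was the -0.13 of Emcn.

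RNA processing genes of the set served splicing, polyadenylation and translation. Rbm5, a splicing regulator, had differences of -0.94 at 0 h and -0.61 at 1 h. Zranb2, also of splicing, had -0.52 and -0.80. Cstf3, of the cleavage stimulation factor of polyadenylation, had -0.42 and -0.61. Slbp, which binds the stem-loop of histone mRNA, had -0.60 and -0.56, and both of its probes met the rule. Dph5, of diphthamide synthesis on the translation elongation factor, had -0.61 and -1.04. The nucleoporins Nup35, Nup37 and Nup88 had -0.54, -0.66 and -0.55 at 0 h and -0.83, -0.73 and -0.67 at 1 h. Hikeshi, which carries heat shock proteins into the nucleus, had -0.42 and -0.54. Of the DNA repair genes, Rad1, of the checkpoint clamp, had -0.68 and -0.89. Rad52, of homologous recombination, had -0.76 and -0.65. Ogg1, the glycosylase for oxidised guanine, had -0.52 and -0.66. Among further enzymes, Amacr, a racemase of branched-chain fatty acid breakdown, had -0.83 and -0.61. Hao2, a peroxisomal oxidase of hydroxy acids, had -0.45 and -0.41, both close to the threshold. Hnmt, which inactivates histamine, had -0.65 and -0.61.

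Most genes of the set were read by a single probe, 156 of 177. The other 21 had 45 probes, of which 27 met the rule alone. In 18 of the 21 every probe was below 0 at both times, and in 7 every probe met the rule. Besides Mllt10, probes differed in Zmynd8, a chromatin reader (-0.90 and 0.07 at 0 h, -1.28 and -0.09 at 1 h), and in Afap1l1 (-0.89 and -0.04 at 0 h, -0.94 and 0.05 at 1 h). In Taok3, a stress-activated kinase, they gave -0.87 and -0.01 at 0 h and -0.60 and -0.29 at 1 h. The lower value of each of these genes belongs mainly to 1 probe of 2.

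The rule did not use how grafts differed from kidneys at 0 h when both donor kinds are averaged, and with 3 arrays in each group and equal spread this average would be independent of both donor differences. The genes' spread was larger in the brain dead groups, as given above, so the independence is only partial. The average compares grafts at 1 h with kidneys at 0 h. These differ in ischemia, reperfusion, recipient surgery and the recipient's loss of its right kidney. A sham-operated group is not among the groups, so such effects cannot be told apart. In limma with Benjamini-Hochberg adjustment over all 18478 features, 1 of the 177 genes passed, against 1.76% of all features (0.709% lower and 1.06% higher). Akr1c19 fell by 0.56 ± 0.116 on the log2 scale (SE, 6 grafts against 6 kidneys, adjusted p = 0.0472), with -0.52 in brain dead donor grafts minus brain dead donor kidneys and -0.61 in living donor grafts minus normal kidneys. That call was lost under quantile normalization (-0.40, adjusted p = 0.214) and when any array but C25 was left out (adjusted p of 0.063 to 0.112). The number of genes that passed was 2 under quantile normalization, both higher, 14 with array weights, 13 of them lower, and 7 without C25, all lower.

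The median transplantation effect over the set was -0.13 (-0.06 under quantile normalization), against -0.0055 over all features. Of the 177 genes 147 (83.1%) were below 0, against 52.3% of features, and 124 were after quantile normalization, against 53.6%. At an unadjusted p under 0.05, 46 genes were lower and 5 higher, together 28.8% of the set, against 17.9% of features. The rule's demand for no overlap bears on the spread that enters this p, so nothing is read from the excess. Taken apart, brain dead donor grafts minus brain dead donor kidneys had a median of -0.18, with 157 genes below 0 (88.7%, against 51% of features). Living donor grafts minus normal kidneys had a median of -0.08, with 123 below 0 (69.5%, against 52.1%). Each of these takes its arrays from both sides of the rule, so they are given without a test. In 117 genes both were below 0, in 14 both were above 0, and in 40 the grafts of brain dead donors were lower and those of living donors higher than their kidneys at 0 h. After Akr1c19 the largest negative values were those of Spag8 (-0.55 ± 0.18, adjusted p = 0.149), Ctdsp1 (-0.45), Marf1 (-0.44), Scaf4 (-0.42), Sipa1l1 (-0.41), Amacr (-0.41) and Wnk1 (-0.39), none of which passed. The largest positive values were those of Nr0b2 (0.59 ± 0.20, adjusted p = 0.165), Higd1b (0.44), Pcsk6 (0.39), Rassf6 (0.27), Tle2 (0.21), Epn3 (0.21), Slbp (0.15) and Zc3h6 (0.12), and none passed either. By role, the transplantation effect was below 0 in all 16 cilium and microtubule genes and all 7 ion transport genes. It was also below 0 in all 6 ubiquitin, NEDD8 and SUMO genes, all 4 of nuclear pores and import, and 17 of the 28 signalling genes. The share over the whole set was 83.1%, and the roles, assigned by hand, carry no test.

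**Figure D5:**
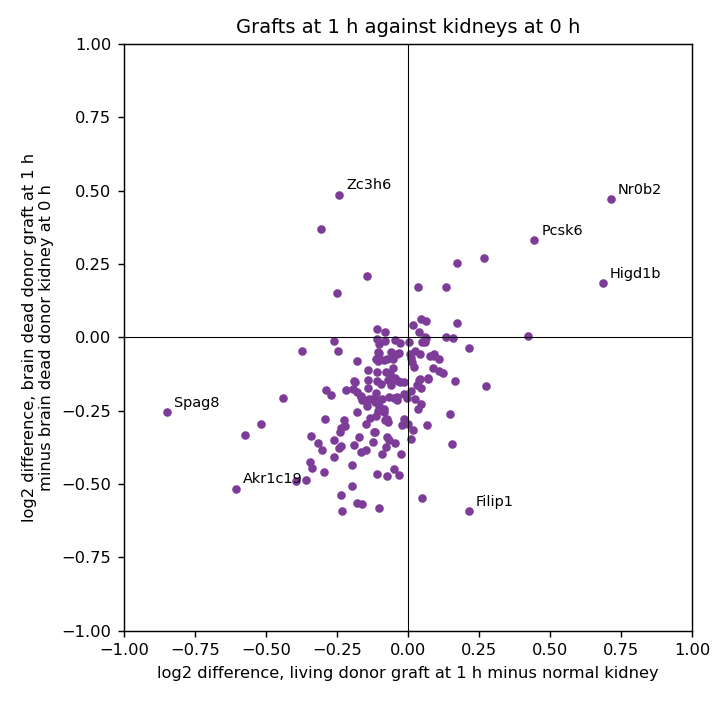
Each point is 1 of the 177 genes; the horizontal axis is the log2 difference of living donor grafts at 1 h minus normal kidneys and the vertical axis that of brain dead donor grafts at 1 h minus brain dead donor kidneys at 0 h. 117 points lie at the lower left, Nr0b2, Higd1b and Pcsk6 lie far to the upper right, and Akr1c19 and Spag8 far to the lower left.

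Relatives of the most lowered genes were read from 8 family lists with 184 measured genes, 12 of them in the set. Among the other 172, the limma fit with Benjamini-Hochberg adjustment called 5 higher and 2 lower at 0 h (4.07%, against 4.65% of all features), and 2 higher and 11 lower at 1 h (7.56%, against 6.76%). The share called lower was 1.16% at 0 h and 6.4% at 1 h, against 1.84% and 4.03% of the 18301 features outside the set. With the set's own genes kept in, 11 of the 184 were called lower at 0 h (5.98%) and 22 at 1 h (12%), which the choice of the set bears on. At 0 h the count of 7 was 27 with array weights (15 higher and 12 lower), 11 under quantile normalization (9 higher and 2 lower), 11 without BD1, 0 without BD2, 1 without BD3, NK1 or NK2, 2 without NK3 and 4 without C22 or C24. At 1 h the count of 13 was 1 under quantile normalization, 3 without B21, C22 or C25, 4 without B27, 6 without NK3 or C24 and 8 without B23.

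Of the glycogen genes, Gyg1, the primer of glycogen synthesis, fell at both times (-0.346 ± 0.071, adjusted p = 0.0267, and -0.297 ± 0.071, adjusted p = 0.0349). Of the nuclear receptors, the retinoic acid receptor Rarg rose at both times (0.611 ± 0.097, adjusted p = 0.0107, and 0.394 ± 0.097, adjusted p = 0.0398) and Nr2f1 fell at 1 h (-0.465 ± 0.113, adjusted p = 0.0387). In the SUMO system the ligase Pias4 fell at 0 h (-0.281 ± 0.069, adjusted p = 0.0492) and the protease Senp2 at 1 h (-0.468 ± 0.112, adjusted p = 0.0356). In the list of DNA and histone methylation, the reader Mbd2 rose at both times (0.267 and 0.29, ± 0.06), and the histone methyltransferases Ezh1 and Ezh2 and the demethylase Kdm4c fell at 1 h (-0.228, -0.416 and -0.441). Among BMP and Wnt genes, Id2, a target of BMP signals, and the Wnt inhibitor Dkk2 rose at 0 h (0.70 ± 0.138 and 0.708 ± 0.17), and the endothelial receptor Acvrl1 fell at 1 h (-0.625 ± 0.09, adjusted p = 0.00559). Akr1c1 fell at 1 h (-0.89 ± 0.232, adjusted p = 0.0495), as did the phosphoinositide phosphatases Inpp4a (-0.468 ± 0.107) and Inpp5b (-0.523 ± 0.092). Synj1, another phosphatase of that list, rose at 0 h (0.329 ± 0.072), and the flippase Atp10a fell at 1 h (-1.223 ± 0.276, adjusted p = 0.0286).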

How the data were processed

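The study measured RNA of 12 rat kidneys or grafts on 2-colour Agilent oligonucleotide arrays, with the sample in Cy3 and a pool of normal kidney RNA in Cy5. Per the design text, the authors extracted spots with Agilent Feature Extraction software, normalized each array in GeneSpring 7.0 (per spot, per chip and by intensity-dependent lowess) and used the Cy3 over Cy5 ratio. Judged by their range, the deposited values are log10 ratios, and they were multiplied by 3.322. The program that wrote them is not given in these sources, and the direction, sample over pool, rests on the design text. No intensities were used, so dim and saturated spots could not be weighed, and the number of arrays limits the precision. Groups came from the sample titles, since the free-text description is alike on all arrays and goes against 9 titles.

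Log2 ratios of probes with 1 gene symbol were averaged per gene (21575 probes, 18478 features with unnamed probes kept singly). Array medians lay between 0 and 0.0099, and no further normalization was applied. A model of group means was fitted in R 4.3.3 by limma 3.58.1 (lmFit, then eBayes), with 8 residual degrees of freedom, and p-values were adjusted by Benjamini and Hochberg over all features. The step was tested on data simulated with the same spread in all 4 groups, which the genes of the set did not have. Differences are brain dead minus its comparison group, and the transplantation effect is the mean over both donor kinds of graft minus kidney at 0 h. Summaries used Python 3.11.15 with pandas 2.3.3.

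The set, the family lists, the marker lists and the textbook roles were chosen with earlier results of these data known. Any gene of the set could be named, the 20 with the lowest mean difference with all values, the 8 largest transplantation effects in each direction, 4 genes on either side of the threshold, and list genes where they passed. Alternatives were quantile normalization, array weights, the median of probes, other thresholds, exact zeros set to missing, named genes alone, a replicate block and leaving out each array.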

Additional observations from a re-analysis of the deposited data

Results flagged for a closer look

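Filip1, whose product binds filamin and acts on actin, had graft differences of opposite sign in the 2 donor kinds. Brain dead donor grafts minus brain dead donor kidneys gave -0.592 on the log2 scale, and living donor grafts minus normal kidneys gave 0.214, with no overlap of replicates in either. The interaction of donor and time did not pass in limma (adjusted p = 0.881), and the rule that chose the set used the same arrays. Its difference at 0 h was -0.40 with all arrays and -0.24 without BD1.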

How the results depend on the processing

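The rule gave 280 genes at a threshold of -0.3 and 108 at -0.5. It gave 134 after quantile normalization of the arrays, 115 of them in the set, 215 with overlap allowed, 180 with the median of probes, 174 with every probe at or below 0, and 177 with exact zeros as missing. Leaving out 1 array gave 161 to 219 genes, of which 155 to 177 were in the set, and 110 genes met the rule whichever array was left out. After quantile normalization the medians of the 177 genes were -0.57 at 0 h and -0.51 at 1 h, so the larger difference was then at 0 h and not at 1 h.

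The number of set genes that passed for the transplantation effect, 1 as reported, was 2 under quantile normalization, 14 with array weights and 0 to 7 without 1 array. The median effect of the set ran from -0.174 to -0.098 without 1 array. Zc3h6, at 0.12 in the report, was at -0.086 with array weights and between -0.097, without BD1, and 0.244 without 1 array. The cause of these changes was not tested.

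Of the 172 relatives outside the set, 7 passed at 0 h in the report, against 11 under quantile normalization, 27 with array weights, 11 among named genes alone (fewer features tested) and 0 to 11 without 1 array. At 1 h 13 passed, against 1 under quantile normalization and 3 to 15 without 1 array. The cause was not tested here either.

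Brain dead donor kidneys and normal kidneys share the numbers 1 to 3. Deviations from the group means correlated between same-numbered arrays at 0.328, 0.1 and 0.034, and between the others at -0.274 to 0.278. BD1 correlated best with NK1, and BD2 and BD3 correlated best with another number. With 3 arrays per group these values cannot decide whether same-numbered arrays share more than the number. With the replicate number as a random block, 1 set gene passed for the transplantation effect, and 5 relatives passed at 0 h and 12 at 1 h. Grafts carry no shared numbers.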
